A study of Homo sapiens with 6 samples.

Results

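The 126 zinc finger genes of chromosome 19 in a gene table of 12180 were followed in TE1 cells with and without overexpression of FGL1. Members were the genes whose symbol is ZNF followed by a number, with at most 1 further letter, and whose locus was on chromosome 19. The question was whether these genes, which lie in a few dense groups along the chromosome, differed between the groups one by one or together by position. TE1 (TE-1 in the labels) is a human cell line from an esophageal squamous cell carcinoma (ESCC). Stable lines were made with lentivirus and puromycin selection. The 3 FGL1-OE libraries come from cells overexpressing FGL1, a secreted protein of the fibrinogen family. The 3 control libraries carry the genotype WT in the labels, while the methods describe an NC line with a nonsense sequence, and they are called NC below. RNA was enriched with oligo(dT) beads, and expression is given as FPKM, a value scaled for transcript length and sequencing depth.

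C2H2 zinc finger proteins bind DNA through a row of small domains, each folded around a zinc ion that is held by a pair of cysteines and a pair of histidines. Many of them carry a KRAB domain, which binds TRIM28 (KAP1). TRIM28 in turn brings in the H3K9 methyltransferase SETDB1 and HP1 proteins, and the bound site is packed into silent chromatin. Much of this family arose by tandem duplication on chromosome 19, and many members silence retroelements.

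A widespread difference between libraries lay within the NC group and moved with base composition, so the finger sequence that recurs across the family is shown first. Each line is 1 finger of 26 codons with its linker, taken 5′ to 3′ from the coding sequence of a GENCODE release 29 transcript. Capitals mark the codons of the 2 cysteines and 2 histidines that hold the zinc. Among the groups of 9 or more neighbours, ZNF761 and ZNF468 come from the one with the lowest median GC content and ZNF787 and ZNF865 from the one with the highest.
ZNF761: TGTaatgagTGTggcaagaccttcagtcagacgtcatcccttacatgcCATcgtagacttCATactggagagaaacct
ZNF468: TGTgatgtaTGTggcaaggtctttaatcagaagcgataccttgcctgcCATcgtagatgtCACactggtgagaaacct
ZNF787: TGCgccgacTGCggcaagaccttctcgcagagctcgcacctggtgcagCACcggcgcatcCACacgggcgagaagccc
ZNF865: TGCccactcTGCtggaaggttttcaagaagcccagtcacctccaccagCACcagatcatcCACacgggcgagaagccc
GC content was 46.2% in the fingers of ZNF761 and ZNF468, 69.2% in that of ZNF787 and 59.0% in that of ZNF865. The cysteine codons are TGT in the first pair and TGC in the second. In all, 98 members had a finger followed by this linker. The annotated proteins held 1 to 26 fingers with a median of 12, and 91 of 126 matched a pattern of the KRAB box. A member without a match may still hold a diverged domain.

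The 6 libraries differed in ways the groups do not explain. NC 1 or NC 2 was the highest or the lowest library for most genes: over all genes tested NC 2 was the highest in 35.9% and NC 1 the lowest in 41.3%. FGL1 stood at 0.0202, 0 and 0.106 FPKM in NC libraries, compared with 33.55, 39.3 and 39.9 FPKM in FGL1-OE (log2 difference 5.21, standard error 0.15, adjusted p = 1.29e-05 by limma with Benjamini-Hochberg adjustment). Of 22 epithelial markers, not all of them particular to squamous cells, 18 had values. In NC and FGL1-OE, KRT5 averaged 5.40 and 5.10 FPKM, KRT17 9.42 and 12.9 FPKM and KRT6A 136 and 191 FPKM. KRT8 averaged 350 and 319 FPKM and KRT18 405 and 423 FPKM. Of the 17 tested, 2 rose at an unadjusted p under 0.05, KRT6A and CDH1 (1.21% of all genes), and 0 fell (0.807% of all genes). Of these markers 0 passed adjustment. TP63 was low, at 0.299 to 0.779 FPKM, and no value was listed for KRT14, KRT6B, SOX2 and PKP1. Of 18 markers of other cell types 6 had values, which summed to 9.54 to 11.2 FPKM in NC against 7.81 to 12.4 FPKM in FGL1-OE. In NC and FGL1-OE, CD68 averaged 4.18 and 4.09 FPKM, COL1A1 3.30 and 2.65 FPKM and COL1A2 1.53 and 1.53 FPKM. ACTA2 averaged 0.510 and 0.547 FPKM and HBA1 0.593 and 0.377 FPKM. LUM was at 2.33 FPKM in FGL1-OE 2 and at 0 to 0.204 FPKM in the other libraries. No value was listed for PTPRC, CD3E, PECAM1, DCN, ALB or HBB. The tables hold no counts, so the depth of the libraries is unknown. Nothing in the labels says that the 3 libraries of a group were separate cultures, and the p-values then measure only the spread between these libraries.

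Roughly every second zinc finger gene of the chromosome had a value. GENCODE release 29 annotates 246 protein-coding genes with such symbols on chromosome 19, and 51.2% of them were listed. The other 120 were not spread evenly. The rule for listing a gene is not given in the sources used here, so a missing value need not mean absent expression. Between ZNF431 and ZNF507, 23 annotated genes in a row had no value, among them ZNF91, which represses SVA retroelements, ZNF43 and ZNF675, an inhibitor of TRAF6 signalling. Runs of 13 genes between ZNF700 and ZNF564, of 12 between ZNF529 and ZNF527 and of 10 between ZNF14 and ZNF430 had none either, and the last of these holds ZNF93, a repressor of LINE-1 elements. Of 7 zinc finger genes known for promoter methylation in carcinomas (ZNF671, ZNF154, ZNF132, ZNF582, ZNF471, ZNF382 and ZNF135), 0 had a value. Conversely, all 9 annotated genes between ZNF628 and ZNF444 were listed, as were 29 of 39 between ZNF175 and ZNF331 and 31 of 43 between ZNF264 and ZNF446.

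The members were weakly expressed. The median of their mean levels over the 6 libraries was 1.91 FPKM, against 5.80 FPKM over all genes tested. Of the 126 genes, 25 lay under 1 FPKM, 12 reached 5 FPKM and 3 reached 10 FPKM. The highest was ZNF146, a small protein made almost wholly of zinc fingers, at 19.9, 40.5 and 26.2 FPKM in NC against 22.3, 29.7 and 26.1 FPKM in FGL1-OE. Its groups overlapped, with the highest and the lowest value both in NC (log2 difference -0.09, standard error 0.26). ZNF428, whose protein of 218 residues matched a single finger, followed at 46.4, 8.89 and 21.7 FPKM in NC against 17.2, 14.4 and 14.3 FPKM in FGL1-OE. Here the order of NC 1 and NC 2 was the opposite of that in ZNF146, and the groups again overlapped (-0.44, standard error 0.50). ZNF787 ran from 29.5 in NC 1 to 9.39 in NC 2 and 18.9 FPKM in NC 3, beside 17.5, 13.4 and 14.1 FPKM in FGL1-OE (-0.22, standard error 0.36). ZNF581 and ZNF552 came next, with means of 8.19 and 7.29 FPKM. The FPKM of all 126 members summed to 363, 367 and 360 in NC and to 314, 344 and 321 in FGL1-OE, with no overlap between groups. Without the 5 highest genes the sums were 254.9, 292.7 and 274.7 in NC and 241.6, 270.3 and 251.8 in FGL1-OE, and the groups overlapped. The separation of the full sums was not particular to chromosome 19. The 201 tested zinc finger genes of other chromosomes summed to 907, 914 and 915 in NC and to 842, 903 and 885 in FGL1-OE. These groups did not overlap either, while those of the 722 other tested genes of chromosome 19 did. Fewer cells expressing a gene and less RNA per cell cannot be told apart in such bulk libraries.

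Along the chromosome, the members formed 16 clusters when runs were separated at gaps of over 1 Mb, and 5 clusters held 9 or more members. All coordinates are on GRCh37. Cluster 14 (chr19:52074551-54083523) runs from ZNF175 to ZNF331 and holds 29 members, 27 of them with the KRAB pattern. The median GC content of their most abundant listed transcripts was 40.8%, the lowest of the 5 clusters. Cluster 15 (chr19:55987699-56672262) runs from ZNF628 to ZNF444 and holds 9 members, of which 0 matched the KRAB pattern, with a median GC content of 68.6%. Cluster 16 (chr19:57702868-58992597, ZNF264 to ZNF446, 31 members), cluster 11 (chr19:44100544-45579846, ZNF576 to ZNF296, 16 members) and cluster 2 (chr19:7069455-9785762, ZNF557 to ZNF562, 9 members) lay between them, at 47.3%, 42.6% and 44.0% GC.

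Between groups the clusters differed little. The median log2 difference between FGL1-OE and NC, on the scale of log2(FPKM + 1), was 0.03 in cluster 14, with 15 members above and 14 below 0. It was -0.11 in cluster 15, -0.09 in cluster 16, -0.08 in cluster 11 and 0.03 in cluster 2. The medians of clusters 14, 15, 11 and 2 changed sign when 1 NC library was left out, and that of cluster 16 stayed below 0. In cluster 14 it was -0.19 when NC 1 was left out and 0.17 without NC 2. In cluster 15 it was 0.10 without NC 1 and -0.46 without NC 2, in cluster 11 it was 0.06 without NC 2, and in cluster 2 it was -0.03 without NC 1.

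**Figure D1:**
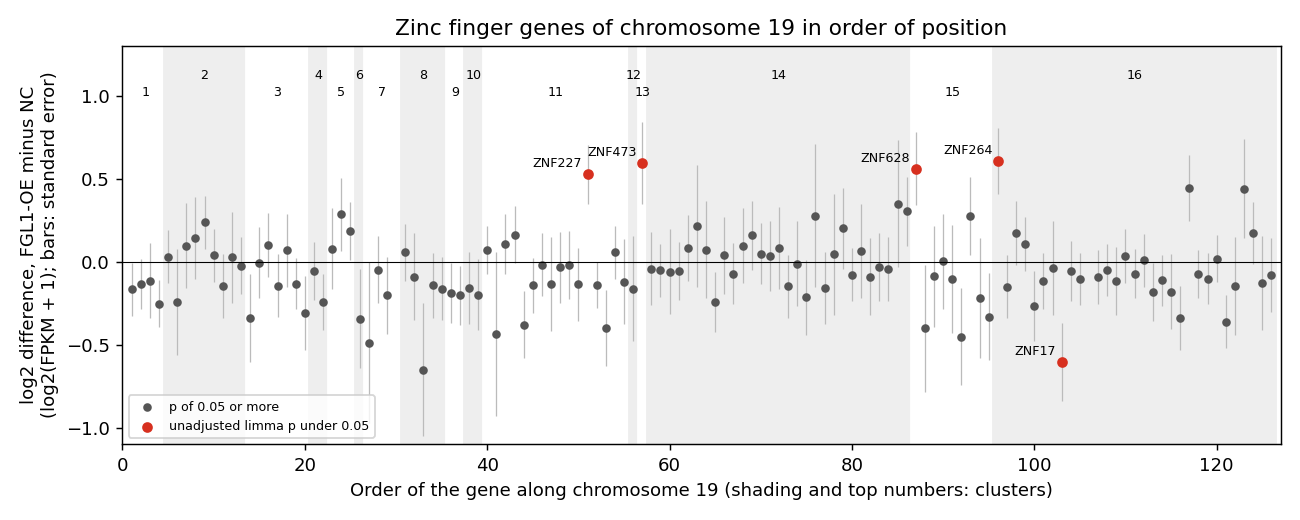
Log2 difference between FGL1-OE and NC (vertical axis, log2(FPKM + 1), bars are standard errors) for each of the 124 tested members in order of position along chromosome 19 (horizontal axis). Shading and the numbers at the top mark the 16 clusters, and red points are the 5 genes with an unadjusted p under 0.05, of which 4 lie above and 1 below 0.

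The larger contrast was between control libraries. In cluster 14, 28 of 29 members were higher in NC 2 than in NC 1, and the exception, ZNF615, was at 0.978 FPKM in NC 1 and 0.975 FPKM in NC 2. NC 2 was the highest of the 6 libraries for 25 of the 29 and NC 1 the lowest for 23. ZNF468 stood at 0.998 FPKM in NC 1, 6.45 in NC 2 and 3.98 in NC 3, with 3.70, 4.40 and 4.20 FPKM in FGL1-OE. ZNF813 was at 0.144 FPKM in NC 1 beside 2.70 FPKM in NC 2, and ZNF761, the highest of the cluster, at 3.65 beside 5.47 FPKM. As deviations from each gene's mean over the 6 libraries, the cluster's medians were -0.37, 0.40 and -0.01 (log2) in NC and -0.12, 0.15 and -0.02 (log2) in FGL1-OE, so the FGL1-OE libraries lay between NC 1 and NC 2. Cluster 15 went the other way. Of its 9 members, 1 was higher in NC 2 than in NC 1, ZNF581, at 5.43 FPKM in NC 1 and 6.25 FPKM in NC 2. ZNF579 was at 14.5 FPKM in NC 1 beside 3.79 FPKM in NC 2, and ZNF865 at 10.3 beside 4.02 FPKM. The cluster's median deviations were 0.56, -0.61 and 0.21 in NC and -0.003, -0.09 and -0.05 in FGL1-OE.

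**Figure D2:**
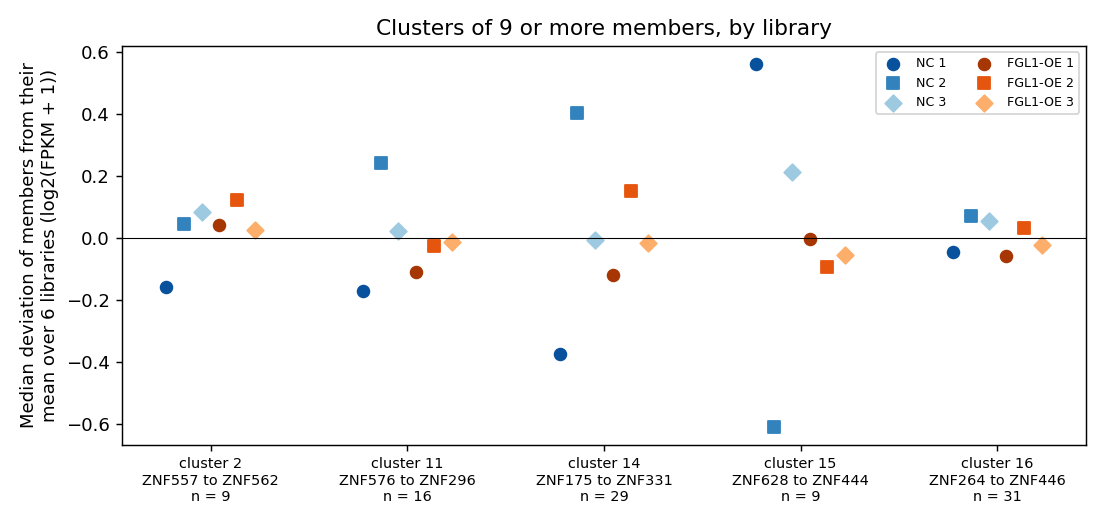
Median deviation of the members from their own mean over the 6 libraries (vertical axis, log2(FPKM + 1)) for the 5 clusters of 9 or more members, 1 point per library. In cluster 14 NC 1 lies lowest at -0.37 and NC 2 highest at 0.40, in cluster 15 NC 1 lies highest at 0.56 and NC 2 lowest at -0.61, and the 3 FGL1-OE libraries fall between them in both.

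GC content moved with this contrast. Over the 124 members with a GC value and a test, the difference between NC 2 and NC 1 had a correlation across genes of -0.79 (Pearson) and -0.71 (Spearman) with the GC content of the most abundant listed transcript. The genes are not independent replicates, and all points share the same pair of libraries. Over 11786 genes of the whole table the values were -0.76 and -0.79, and over 196 zinc finger genes of other chromosomes -0.79 and -0.79. Of 95 members under 50% GC, 85 were higher in NC 2 than in NC 1, with a median log2 difference of 0.47. Of 30 members at 50% GC or more, 3 were, with a median of -0.70. The KRAB pattern split the members in the same way, since the 91 with a match had a median GC content of 42.3% and the 35 without 61.3%, and 75 and 13 of them respectively were higher in NC 2. The other 722 tested genes of chromosome 19, with a median GC content of 61.3%, had 15.5% higher in NC 2, against 70.2% of the 124 tested members. When the trend with GC content and length was removed from each library, 56 of 124 members (45.2%) were higher in NC 2 than in NC 1, against 50.1% of all genes. The trend was fitted over all genes with a GC value, so a share near 50% over all genes follows from the fit. The median log2 difference between NC 2 and NC 1 was then 0.22 in cluster 14 and 0.14 in cluster 15. It was -0.10 in cluster 16, -0.18 in cluster 11 and -0.27 in cluster 2. The difference between FGL1-OE and NC had a correlation with GC content of -0.07 (Pearson) and -0.13 (Spearman) over the members, against -0.29 and -0.33 over all genes and -0.30 and -0.32 over the other genes of chromosome 19.

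**Figure D3:**
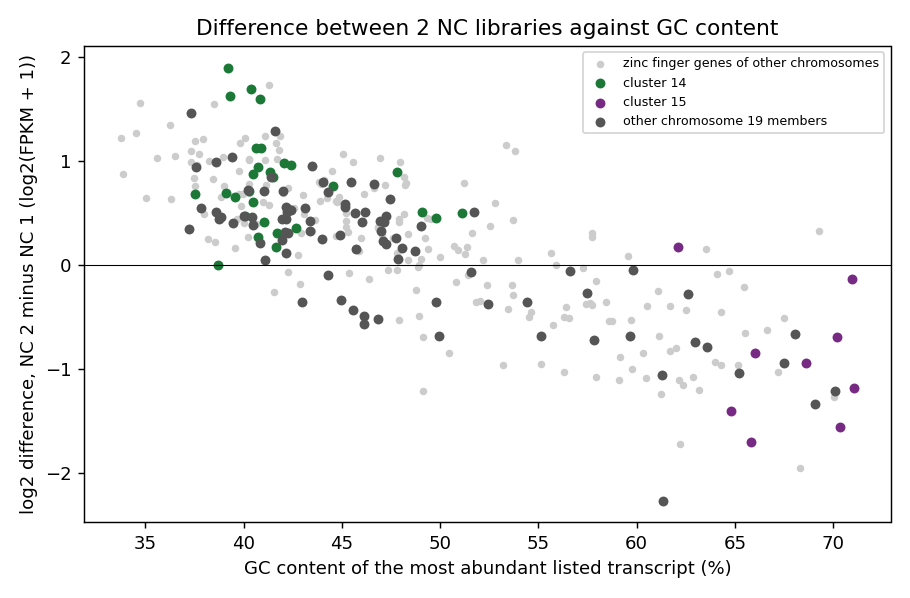
Log2 difference between NC 2 and NC 1 (vertical axis, log2(FPKM + 1)) against the GC content of the most abundant listed transcript (horizontal axis, %), for members of cluster 14, cluster 15 and the other clusters, and in grey for zinc finger genes of other chromosomes. Points fall from the upper left to the lower right, with a Pearson correlation of -0.79 over the 124 members.

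Of the 126 members, 124 had a mean of at least 0.5 FPKM and were tested. ZNF792 (0.410, 0.395 and 0.426 FPKM in NC against 0.647, 0.511 and 0.552 FPKM in FGL1-OE) and ZNF419 (mean 0.439 FPKM) were not. By limma, 0 members differed between groups at an adjusted p under 0.05, while 0.00832% of all genes did, which is FGL1 alone. At an unadjusted p under 0.05, 4 members rose (1.21% of all genes) and 1 fell (0.807% of all genes), together 4.03% of the members against 2.01% of all genes. Every FGL1-OE value lay above every NC value in 3 tested members (4.09% of all genes) and below in 4 (3.06% of all genes). Either way, 7 of 124 members had separate groups, a share no greater than the 7.15% of all genes. Without FGL1-OE 3, 0 members passed the unadjusted threshold, which 1.14% of all genes passed. Without NC 2, 6 members rose and 12 fell, when 11.2% and 10.6% of all genes did. Without NC 1, 5 fell, as did 1.22% of all genes. None fell without NC 3 or without FGL1-OE 1, when 0.541% and 0.549% of all genes did. Over the 124 members the log2 difference ran from -0.65 in ZNF260 to 0.61 in ZNF264. ZNF260, named after its value was seen, spread from 1.205 to 5.06 FPKM within NC and from 0.606 to 2.34 FPKM within FGL1-OE, and its groups overlapped.

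The members as a group leaned slightly downwards. The median log2 difference was -0.07 against 0.02 for all genes, -0.03 for 201 zinc finger genes of other chromosomes and -0.08 for 722 other genes of chromosome 19. Of the 124 members, 63.7% lay below 0, against 46.3% of all genes and 66.3% of the other genes of chromosome 19. This lean depended on the library. It was -0.13 when NC 1 was left out, 0.01 without NC 2 and -0.01 without FGL1-OE 1. With the trend of GC content and length removed, it was -0.10 and 70.2% of the members lay below 0, against 49.6% of all genes. In that fit 9 members fell and 2 rose at an unadjusted p under 0.05 (3.28% and 3.11% of all genes), and 19 had every FGL1-OE value below every NC value (6.74% of all genes). ZNF112 had the lowest p of the 9, with a log2 difference of -0.47 (adjusted p = 0.447 by limma), and ZNF155, ZNF77, ZNF791, ZNF780B, ZNF17, ZNF14, ZNF304 and ZNF507 were the others. These 9 were chosen after their values were seen, and none passed adjustment. The trend was fitted over all genes with a GC value. Over these, the difference between groups had a Pearson correlation with GC content of -0.29, against -0.07 over the members. Whether removing the trend itself moved the members downwards was not tested.

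Of the single genes, ZNF264, a KRAB zinc finger gene at the start of cluster 16 (chr19:57702868-57734214), was at 1.03, 0.268 and 0.552 FPKM in NC against 1.45, 1.27 and 1.53 FPKM in FGL1-OE. All 3 FGL1-OE values lay above all NC values, and the log2 difference was 0.61 (standard error 0.20, unadjusted p = 0.0166, adjusted p = 1 by limma). ZNF227, a KRAB gene in cluster 11 (chr19:44711700-44741421), was at 1.61, 1.05 and 1.60 FPKM in NC against 1.99, 2.997 and 2.48 FPKM in FGL1-OE, again without overlap (0.53, standard error 0.18, unadjusted p = 0.0203 by limma). Its neighbour ZNF235 overlaps it by 8540 bases on the opposite strand. ZNF235 was at 0.568, 0.698 and 0.507 FPKM in NC against 0.409, 0.414 and 0.4995 FPKM in FGL1-OE, so the groups were apart in the opposite direction, by a small margin (-0.14, standard error 0.14). Whether reads were assigned by strand is not given in the sources used here. ZNF628, the first gene of cluster 15 (chr19:55987699-55995854), was at 0.494, 0.362 and 0.317 FPKM in NC against 0.627, 0.877 and 1.81 FPKM in FGL1-OE. Its groups did not overlap, and the log2 difference of 0.56 (standard error 0.22) became 0.33 without FGL1-OE 3.

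ZNF473 (chr19:50528971-50556671), a component of the U7 snRNP that processes the ends of histone transcripts, stood alone in its cluster. It was at 2.06, 2.18 and 4.67 FPKM in NC against 4.55, 4.77 and 4.93 FPKM in FGL1-OE. NC 3 reached the FGL1-OE level, so the groups overlapped, and the log2 difference was 0.60 (standard error 0.25, unadjusted p = 0.0447, adjusted p = 1 by limma). ZNF17, a KRAB gene of cluster 16 (chr19:57922531-57933307), was at 1.13, 1.67 and 2.49 FPKM in NC against 0.630, 1.25 and 0.533 FPKM in FGL1-OE. FGL1-OE 2 lay above NC 1, and the log2 difference was -0.61 (standard error 0.24, unadjusted p = 0.0342, adjusted p = 1 by limma). ZNF77, a KRAB gene of cluster 1, was at 2.14, 2.68 and 2.35 FPKM in NC against 1.94, 1.84 and 1.73 FPKM in FGL1-OE (-0.25, standard error 0.14). ZNF497 was at 0.763, 0.452 and 0.896 FPKM against 0.381, 0.214 and 0.369 FPKM (-0.36, standard error 0.16). ZNF417 was at 0.665, 0.914 and 0.709 FPKM in NC against 0.617, 0.0751 and 0.547 FPKM in FGL1-OE. ZNF77, ZNF497 and ZNF417 had no overlap between groups, none had an unadjusted p under 0.05, and the difference of ZNF417, -0.34, was -0.15 without FGL1-OE 2. An exact two-sided permutation test of 3 against 3 libraries cannot go below p = 0.1, which each gene with separate groups reached.

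**Figure D4:**
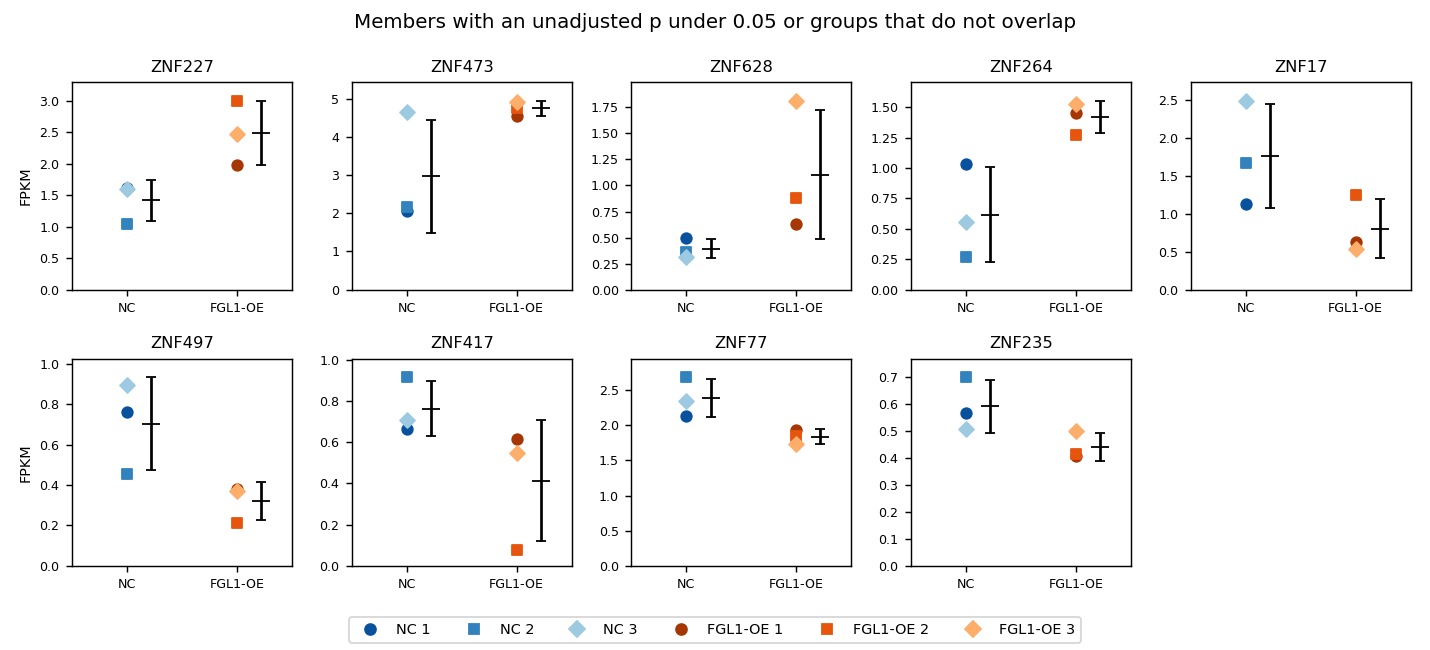
FPKM (vertical axis) of the 9 tested members with an unadjusted p under 0.05 or with groups that do not overlap, 1 point per library, with the mean and SD of each group (n = 3) beside the points. ZNF264, ZNF227 and ZNF628 lie higher in all FGL1-OE libraries, ZNF497, ZNF417, ZNF77 and ZNF235 lower in all, and ZNF473 and ZNF17 overlap.

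Members with a described function showed overlapping groups. ZNF274, which recruits SETDB1 to the coding ends of other zinc finger genes, was at 4.58, 4.36 and 3.998 FPKM in NC against 3.57, 4.31 and 4.27 FPKM in FGL1-OE (log2 difference -0.07, standard error 0.15). ZNF350 (ZBRK1), a partner of BRCA1, was at 0.661, 1.13 and 0.480 FPKM in NC against 0.672, 0.705 and 0.629 FPKM in FGL1-OE (-0.06, standard error 0.17). Within NC it ranged more widely than within FGL1-OE. ZNF224, a KRAB repressor, was at 0.869, 2.08 and 1.21 FPKM against 0.534, 1.94 and 1.13 FPKM (-0.13, standard error 0.28). ZNF649 and ZNF765, which bind LINE-1 elements, were at 0.742 to 1.16 FPKM and at 0.473 to 1.32 FPKM over the 6 libraries, with log2 differences of -0.05 and -0.03. The lowest value of ZNF649 and both extremes of ZNF765 fell in NC 1 and NC 2. The leading genes of further clusters overlapped as well, namely ZNF57, ZNF317, ZNF700, ZNF101, ZNF714, ZNF507, ZNF302, ZNF780A, ZNF574 and ZNF114. Their log2 differences ran from -0.49 in ZNF302 to 0.28 in ZNF714. ZNF302 was at 3.21, 9.31 and 2.14 FPKM in NC against 1.73, 5.21 and 1.92 FPKM in FGL1-OE, with library 2 the highest of each group.

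Sequence shared with other genes limits what single values mean. The median member shared 8.79% of its 31-base words with transcripts of other genes. For 25 members the share was over 20%, and for 3 it was over 50%, namely ZNF320 (79.2%), ZNF564 (71.0%) and ZNF468 (63.2%). The share counts any other annotated gene, also overlapping ones, so it does not count duplicated copies alone. The values of such genes are uncertain, since reads in shared stretches can be assigned to either gene. In cluster 14 the median share was 17.3%, and in cluster 15 it was 0.211%. A further limit is that 28 members overlap another listed gene, such as ZNF28 and ZNF468 or ZNF580 and ZNF581.

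At transcript level, 276 transcripts of 125 members were listed, with 1 transcript in 49 genes and up to 8 in the others, and 58 transcripts were at exactly 0 in at least 1 library. Of these, 245 were tested, and 0 passed an adjusted p under 0.05 (0.0165% of all transcripts did). At an unadjusted p under 0.05, 6 rose (2.05% of all transcripts) and 3 fell (1.48%), against 3.53% of all transcripts in either direction. The groups did not overlap in 6 that were higher (4.65%) and in 8 that were lower in FGL1-OE (3.57%), against 8.22% of all transcripts in either direction. The log2 difference was below 0 in 58.8% of the tested member transcripts and in 48.1% of all. Without NC 2, 9 rose and 12 fell, as did 4.37% and 4.66% of all transcripts. Without FGL1-OE 3, 3 rose and 4 fell, as did 1.76% and 1.26% of all transcripts.

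Among transcripts with separate groups, the largest rise was in ZNF331-214 (ENST00000511154, chr19:54041397-54081640), a transcript of an imprinted KRAB gene at the end of cluster 14. All 3 NC libraries listed it at 0 FPKM, and the FGL1-OE libraries had 2.26, 3.39 and 3.11 FPKM (unadjusted p = 0.000115, adjusted p = 0.143 by limma, 0.022 to 1 over the alternatives). It made up 43.5%, 52.2% and 69.0% of the summed FPKM of the gene's 5 listed transcripts in FGL1-OE. The other transcripts varied within NC: ZNF331-220 was at 4.69 FPKM in NC 2 and at 0 in NC 1 and NC 3, and ZNF331-202 was at 0.923, 0.742 and 3.72 FPKM. Only 1.15% of the 31-base words of ZNF331-214 set it apart from all other annotated transcripts of ZNF331. The whole gene was at 0.912, 1.72 and 1.65 FPKM in NC against 2.00, 2.49 and 1.47 FPKM in FGL1-OE, with overlap (0.30, standard error 0.21). Among those with separate groups, the largest fall was in ZNF417-203 (ENST00000595559), the only listed transcript of ZNF417, at 1.07, 0.949 and 1.48 FPKM in NC and listed at 0 in all FGL1-OE libraries (unadjusted p = 0.00221, adjusted p = 0.703 by limma). The gene table still gave ZNF417 0.0751 to 0.617 FPKM in those libraries, so the transcript's 0 does not stand for a silent gene, and 49.7% of the words of ZNF417 occur in other genes.

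Among the other rises, ZNF264-201, the transcript of ZNF264 with 80.1% of its words its own, was at 0.533, 0.0882 and 0.476 FPKM in NC against 1.37, 1.21 and 1.41 FPKM in FGL1-OE. Its share of the gene's transcripts was 3.21% to 18.7% in NC and 40.1% to 43.2% in FGL1-OE, and the log2 difference was 0.79 (standard error 0.24). ZNF45-206 was at 1.16, 1.24 and 1.36 FPKM in NC against 2.78, 2.72 and 2.31 FPKM in FGL1-OE (0.68, standard error 0.21). The 3 NC values lay close together here, but 0% of the transcript's words were its own. ZNF317-206 was at 0, 0.0127 and 0.862 FPKM against 1.65, 0.906 and 1.44 FPKM. ZNF227-208 was at 0.888, 0 and 0.540 FPKM against 1.35, 1.46 and 1.61 FPKM. Both had an unadjusted p under 0.05, at 0.0337 and 0.0373 by limma, and an adjusted p of 1.00.

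Among the falls, ZNF480-206 was at 1.08, 0.793 and 1.96 FPKM in NC against 0.209, 0.210 and 0.0986 FPKM in FGL1-OE, with 23.3% of its words its own (-0.93, standard error 0.27, unadjusted p = 0.013 by limma). ZNF780A-206 was at 1.05, 1.70 and 1.70 FPKM in NC against 0.815, 0 and 0 FPKM in FGL1-OE, with 0% of its words its own. The log2 differences of the whole genes were 0.16 for ZNF480 and -0.20 for ZNF780A, neither past the unadjusted threshold. ZNF155-201 and ZNF552-202 had separate groups too, without an unadjusted p under 0.05. ZNF155-201 was at 3.46, 5.91 and 3.63 FPKM against 1.77, 1.81 and 3.10 FPKM. ZNF552-202 was at 2.01, 2.26 and 1.67 FPKM against 1.45, 0.863 and 1.29 FPKM.

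**Figure D5:**
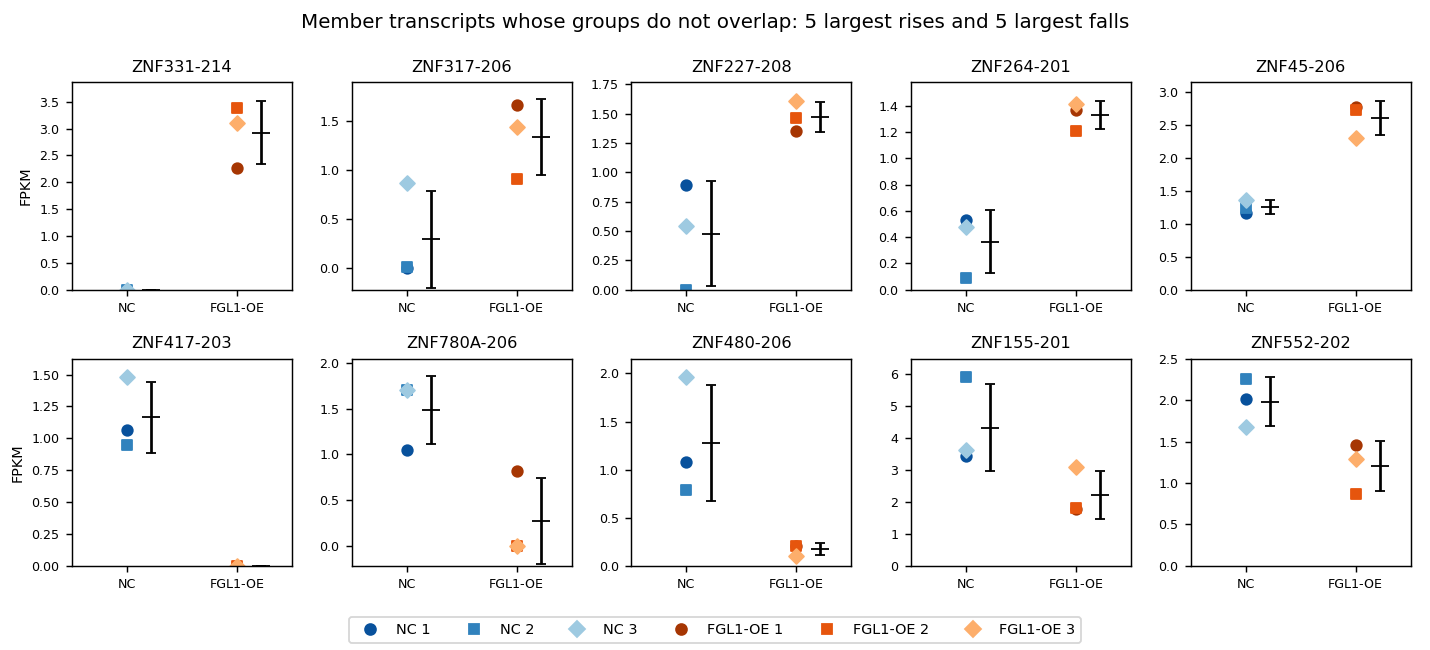
FPKM (vertical axis) of the 5 largest rises (top row) and 5 largest falls (bottom row) among tested member transcripts whose groups do not overlap, 1 point per library, with the mean and SD of each group (n = 3) beside the points. ZNF331-214 is at 0 in all NC libraries and ZNF417-203 at 0 in all FGL1-OE libraries.

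The corepressors that KRAB proteins work with did not pass the test. The 33 such genes tested covered TRIM28, SETDB1, HP1, NuRD and HUSH proteins and H3K9 and DNA methyltransferases. Of these, 0 rose (1.21% of all genes) and 0 fell (0.807% of all genes) at an unadjusted p under 0.05. Their median log2 difference was -0.03. Without NC 2, 1 rose and 3 fell, when 11.2% and 10.6% of all genes did. TRIM28 was at 98.1, 46.1 and 71.9 FPKM in NC against 67.1, 57.1 and 64.0 FPKM in FGL1-OE, with the highest and lowest value both in NC (-0.13, standard error 0.27). SETDB1 was at 5.76, 6.79 and 7.72 FPKM against 7.51, 7.88 and 7.62 FPKM (0.17, standard error 0.15). The HP1 genes CBX1, CBX3 and CBX5 had log2 differences of -0.03, -0.12 and -0.01, and their groups overlapped. SUMO3, a modifier of the SUMO family, was the only gene of the 33 whose groups did not overlap, against 7.15% of all genes in either direction. It was at 33.3, 37.1 and 37.6 FPKM in NC against 44.9, 44.1 and 41.2 FPKM in FGL1-OE (0.27, standard error 0.14).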

How the data were processed

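TE1 RNA was sequenced in 3 libraries per group after oligo(dT) enrichment and a stranded library kit. FPKM values per library, for protein-coding genes and for transcripts, were deposited by the authors. The submitters' processing notes name StringTie and GRCh37, and other steps are not given in the sources used here. The deposited fold changes, p-values and group means of the authors' own comparison were not used. With limma 3.58.1 (R 4.3.3), 12017 genes and 30330 transcripts averaging at least 0.5 FPKM were compared between groups on log2(FPKM + 1), with no covariate and no scaling between libraries, and Benjamini-Hochberg adjustment within each table. A log2 difference on this scale understates the change of low genes. The code was tested on simulated data. Members, lists and rules were chosen with earlier results of these data known.

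Named genes were members with an unadjusted p under 0.05, up to 8 rises and 8 falls among those with separate groups, the 5 highest, the highest of each cluster and those of 3 lists with described functions. Named transcripts were the 5 largest rises and falls with separate groups. GENCODE release 29 (GRCh38) gave sequences, GC content, fingers, the KRAB pattern and the annotated order, with a GC value for 97.7% of genes. No coordinates were moved between builds. Removal of a GC and length trend was chosen after seeing the data.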

Additional observations from a re-analysis of the deposited data

How the results depend on the processing

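Each value was recomputed under quantile normalization, a common library sum, a pseudocount of 0.1, a filter at a mean of 1 FPKM or none, an ordinary linear model, a replicate block, each library left out, and removal of the trend with GC content and length. At an unadjusted p under 0.05, rising members numbered 4 (1.21% of all genes). They became 2 with the ordinary model (1.72% of all genes) and 2 with the trend removed (3.11%). Without 1 library they ran from 0 without FGL1-OE 3 (0.682%) to 6 without NC 2 (11.2%). Falling members numbered 1 (0.807% of all genes). They became 2 with a pseudocount of 0.1 (1.19%), quantile normalization (0.882%) or the ordinary model (1.39%). They were 4 with the replicate block (1.07%) and 9 with the trend removed (3.28%). Without 1 library they ran from 0, as without NC 3 (0.541%), to 12 without NC 2 (10.6%). Members with every FGL1-OE value lower numbered 4 (3.06% of all genes). They became 1 with the filter at 1 FPKM (2.60% of all genes) and 19 with the trend removed (6.74% of all genes). Without 1 library, where fewer values have to separate, they numbered 5 to 23. The 23, without NC 1, were 18.5% of the members against 7.38% of all genes. The 5, without NC 3, were 4.03% against 4.77%. Members with every value higher went from 3 (4.09% of all genes) to between 4 and 10 without 1 library. The 10, without NC 2, were 8.06% of the members against 21.6% of all genes. Rising transcripts numbered 6 (2.05% of all transcripts) and became 3 with the filter at 1 FPKM. Without 1 library they ran from 3 without FGL1-OE 3 (1.76%) to 9 without NC 2 (4.37%). Falling transcripts numbered 3 and became 6 with no filter or the ordinary model, 0 with the filter at 1 FPKM and 7 with the trend removed (2 to 12 without 1 library). With a pseudocount of 0.1, 2 transcripts passed adjustment, ZNF331-214 (adjusted p = 0.022 by limma) and ZNF417-203 (adjusted p = 0.0381 by limma), both at 0 throughout 1 group. Of the corepressors 1 rose with the ordinary model (1.72% of all genes) and with the trend removed (3.11%). Without 1 library 0 to 1 rose and 0 to 3 fell, the most without NC 2 (11.2% and 10.6% of all genes).

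The cause was not tested for any of these shifts. Without 1 library, the median log2 difference of the members ran from -0.13 to 0.01, that of the corepressors from -0.08 to 0.02, and those of clusters 2, 11, 14, 15 and 16 from -0.03 to 0.07, -0.12 to 0.06, -0.19 to 0.17, -0.46 to 0.10 and -0.09 to -0.04. FGL1 ran from 5.16 to 5.29. Of 46 named results, 16 changed sign in at least 1 alternative. Without 1 library the ranges were -0.32 to 0.18 for ZNF146, -1.01 to 0.12 for ZNF428, -0.63 to 0.14 for ZNF787, -0.33 to 0.060 for ZNF57, -0.11 to 0.31 for ZNF317, -0.11 to 0.24 for ZNF700, -0.14 to 0.063 for ZNF101, -0.87 to 0.013 for ZNF302, -0.48 to 0.089 for ZNF114, -0.17 to 0.10 for ZNF761, -0.19 to 0.14 for ZNF765, -0.37 to 0.10 for ZNF224, -0.17 to 0.089 for ZNF350, -0.42 to 0.12 for TRIM28, -0.13 to 0.11 for CBX1 and -0.13 to 0.19 for CBX5. The one that changed outside the left-out libraries was ZNF700, at -0.00038 with the trend removed. Same-numbered libraries had correlated deviations in 2 of 3 pairs (0.345, 0.282 and -0.0614). Differently numbered pairs ran from -0.37 (NC 2 with FGL1-OE 1) to 0.136 (NC 2 with FGL1-OE 3). No label gives the numbers as pairs, and they were not taken as pairing in the main fit. Whether libraries of the same number share a batch was not tested. The replicate block moved only the count of falling members by over 1.5 times. With it, 10 members had an unadjusted p under 0.05 by limma, against 5 in the main fit. Of the members 4.84% rose and 3.23% fell with the block, against 1.41% and 1.07% of all genes. With no counts in the tables, depth sets no stated limit, and low members carry an unknown counting error.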

Other observations

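Some members, among them ZNF473 named above, changed the make-up of their transcripts between libraries more than their gene level. They were chosen after their values were seen and are given as values. ZNF473-202 was at 0.528, 1.53 and 0.849 FPKM in NC against 1.45, 5.26 and 6.12 FPKM in FGL1-OE. Its log2 difference was 1.31 (standard error 0.47, unadjusted p = 0.0305 by limma), and it did not pass adjustment. ZNF473-203 was at 2.28, 2.04 and 6.28 FPKM in NC against 4.04, 0.765 and 0.152 FPKM in FGL1-OE (-0.94, standard error 0.63). The share of ZNF473-202 among the 3 listed transcripts was 16.2%, 40.2% and 9.88% in NC and 19.3%, 73.1% and 85.9% in FGL1-OE, so the groups overlapped through FGL1-OE 1. Only 1.81% of the 31-base words of ZNF473-202 and 0% of those of ZNF473-203 were their own. In ZNF556, the shorter transcript ZNF556-202 was at 0, 2.12 and 0 FPKM in NC against 0.613, 1.40 and 2.35 FPKM in FGL1-OE, and ZNF556-201 was at 0.887, 0.686 and 1.04 FPKM against 0.697, 0.379 and 0.412 FPKM. Neither transcript of ZNF556 had an unadjusted p under 0.05 by limma, and both had overlapping groups. In ZNF234, transcript ZNF234-204 was at 0, 0.00223 and 2.13 FPKM in NC against 1.44, 2.51 and 1.20 FPKM in FGL1-OE, again with overlap.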
